A study of Homo sapiens with 2 samples.

Results

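The EGFR family comprises receptor tyrosine kinases and the growth factors that bind them. The 10 genes described here were the receptor genes EGFR, ERBB2 and ERBB3 and the 7 ligand genes AREG, EREG, HBEGF, TGFA, BTC, NRG1 and EPGN, taken by gene symbol from a table of 58302 genes. Each symbol stood on 1 row. All 10 reached 10 reads in 1 library or both, as did 17777 genes in all.

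RNA-seq was done on polyadenylated RNA from Tu212, an epithelial-derived cell line in use as a model of squamous carcinoma of the head and neck. The vector control cells had received the pEZ vector and the PRMT5 overexpression cells pEZ-PRMT5, each for 48 h. There was 1 library per group, with 14119997 reads on genes in the vector control and 19908258 in PRMT5 overexpression. PRMT5, an arginine methyltransferase of histones and splicing proteins, had 2068 and 5770 reads, a log2 ratio of 1.01 (PRMT5 overexpression over vector control), and reads of the plasmid's copy could not be told from those of the cell's own gene. No difference below has a replicate check, no p-value is given, and the values describe these 2 libraries. Intervals in parentheses are exact 95% intervals (Clopper-Pearson for single genes and shares). With 1 library per group they cover counting error only and not differences between cultures. Reads are not independent molecules, so the intervals may be too narrow even for counting error.

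The ligands are made as membrane-anchored precursors that metalloproteases of the ADAM family release from the cell surface. AREG, EREG, HBEGF, TGFA, BTC and EPGN bind EGFR, and NRG1 binds ERBB3, which pairs with ERBB2, a receptor without a ligand of its own. Bound receptors dimerise and signal through RAS, ERK and PI3K, and in squamous epithelium the EGFR ligands drive keratinocyte growth and migration in an autocrine loop.

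EPGN, EREG, AREG and BTC lie side by side on chromosome 4 within 486.2 kb. The first 3 are read on the plus strand, and the stretches before their starts are shown. They were picked because the log2 ratios of these neighbours were below 0 (values below), although the interval of EPGN holds 0. EGFR, whose log2 ratio was also below 0 (-0.13), has most of the family's reads. Its stretch is shown too, from the first of its windows and not from the second described below. Each is 100 bases of the plus strand from RefSeq (GRCh38.p14), ending just before the earlier of the RefSeq and GENCODE starts of the gene. For AREG and EREG this is 2 bases short of the RefSeq start, from which motif positions below are counted. They are chr4:74445034-74445133 for AREG, chr4:74365043-74365142 for EREG, chr4:74308370-74308469 for EPGN and chr7:55018917-55019016 for EGFR. Capitals mark the CRE, bound by CREB and ATF factors, and the TATA box.
AREG: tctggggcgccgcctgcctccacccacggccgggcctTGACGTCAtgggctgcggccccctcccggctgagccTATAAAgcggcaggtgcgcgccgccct
EREG: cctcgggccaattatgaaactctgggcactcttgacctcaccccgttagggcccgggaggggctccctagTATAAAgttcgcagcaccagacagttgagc
EPGN: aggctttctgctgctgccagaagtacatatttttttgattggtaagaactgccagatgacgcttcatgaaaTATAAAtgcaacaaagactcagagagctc
EGFR: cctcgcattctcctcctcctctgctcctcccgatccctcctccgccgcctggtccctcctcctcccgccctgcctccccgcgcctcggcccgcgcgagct

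RefSeq windows of 300 bases, from 250 before to 50 after the start, were found for 8 of the 10 genes, and not for ERBB3 and NRG1. The motif TATAAA, searched on both strands like all motifs here, began 29 bases before the start of AREG, 32 before that of EREG and 29 before that of EPGN. It was in 11.5% of 35116 such windows of all genes. The CRE, TGACGTCA, began 65 bases before the start of AREG alone among the 8 genes, and 1.85% of all windows held it. The AP-1 motif TGAGTCA was in 1 of the 8, in the second window of EGFR, which also held TATAAA, against 4.95% of all windows. The GC box GGGCGG was in windows of 5 genes (AREG, BTC, EGFR, HBEGF and TGFA) against 45.0%, and the E-box CACGTG in none of the 8 against 7.26%. A match describes the letters and not a bound site, and a link between motifs and log2 ratios was not tested.

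The receptors differed between the libraries by less than 1.5-fold and not all in 1 direction. EGFR was slightly lower with PRMT5 overexpression, while ERBB2 and ERBB3 were slightly higher. For comparison, 5.33% of the 17777 genes were at least 1.5-fold lower and 7.06% at least 1.5-fold higher. The median log2 ratio of the 3 receptors was 0.15, beside 0.00 over all 17777 genes.

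EGFR, the receptor of most of the ligands here, was the 29th gene of the 17777 by mean reads. It held 23851 reads in the vector control and 30166 in PRMT5 overexpression, which is 1673 and 1530 CPM (counts per 1000000 reads) after scaling for library composition. It was 1.09-fold lower, at a log2 ratio of -0.13 (-0.15 to -0.10). Its interval is narrow because of its depth, and a difference of this size was usual at that depth. Of 77 genes with mean reads within a factor of 2 of its own, 49.4% were as far from 0 or farther. EGFR is ENSG00000146648 (GRCh38 chromosome 7, 55019021 to 55211628, plus strand). Its exons overlap those of the antisense gene EGFR-AS1, which held 33 and 42 reads, and summing both left the log2 ratio at -0.13.

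ERBB2, the favoured dimer partner of the other receptors, had 817 reads in the vector control and 1307 in PRMT5 overexpression, at 57.3 and 66.3 CPM. It was 1.16-fold higher, at a log2 ratio of 0.21 (0.08 to 0.34). ERBB2 (ENSG00000141736; chromosome 17, 39687914 to 39730426, plus strand) shares exon bases with the counted genes MIEN1 and PGAP3, and summed with them it was at 0.20. ERBB3, a receptor with a weak kinase that recruits PI3K, had 755 and 1160 reads, at 52.95 and 58.85 CPM. ERBB3 was at 0.15, and its interval (0.02 to 0.29) comes close to 0. The gene is ENSG00000065361 (chromosome 12, 56079857 to 56103505, plus strand). Of genes of like depth, 19.2% were as far from 0 as ERBB2 and 32.3% as far as ERBB3.

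Set against EGFR within each library, where the scaling between libraries cancels, the ERBB2 reads were 1.265 times (interval 1.156 to 1.384) and the ERBB3 reads 1.215 times (1.106 to 1.335) as many in PRMT5 overexpression as in the vector control. ERBB3 relative to ERBB2 gave 0.960 times (0.844 to 1.09), an interval that holds 1.

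**Figure D1:**
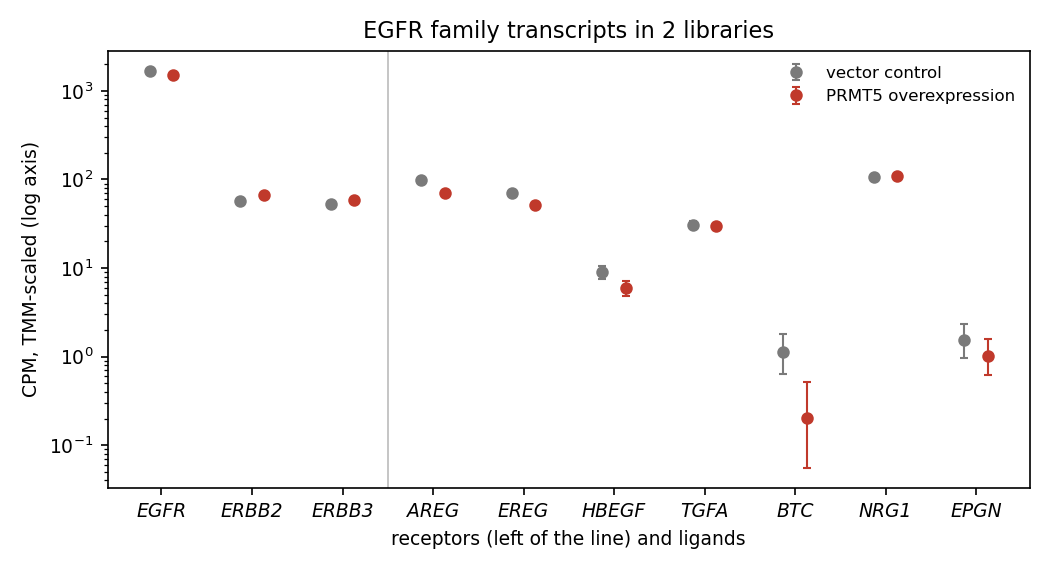
TMM-scaled CPM (log axis) of the 3 receptor genes and 7 ligand genes in the vector control (grey) and PRMT5 overexpression (red), with 1 library per group and bars for the exact 95% Poisson counting interval. EGFR sits at 1673 and 1530 CPM, and AREG, EREG and HBEGF sit lower in PRMT5 overexpression, as does BTC at 1.12 and 0.203 CPM.

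Of the 7 ligands, 6 had a log2 ratio below 0, where 49.6% of the 17777 genes did. Over the whole family 7 of 10 were below 0, and the median log2 ratio was -0.29, which became -0.17 with deposited FPKM and -0.10 with a floor of 50 reads. The median of the ligands was -0.52, beside 0.00 over all genes. HBEGF and BTC were at least 1.5-fold lower, among them BTC at least 2-fold lower, where 5.33% and 1.94% of all genes were so. BTC reached 10 reads in the vector control only (16 and 4 reads), so the floor fixed the sign of its log2 ratio. BTC thus adds nothing to the counts of ligands below 0, of genes at least 1.5-fold or 2-fold lower, or of intervals below 0. Without BTC, HBEGF alone was at least 1.5-fold lower and no family gene was 2-fold lower. With a floor of 50 reads, which leaves out BTC and EPGN, the median of the ligands was -0.46. No ligand was at least 1.5-fold higher, and none of the family was at least 2-fold higher, as 2.90% of all genes were. The counting interval lay below 0 for AREG, EREG, HBEGF, BTC and EGFR, and above 0 for ERBB2 and ERBB3, where each held for 14.3% of all genes. Intervals narrow with depth, so a well-read gene leaves 0 at a smaller difference.

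AREG, amphiregulin, is a growth factor that keratinocytes secrete to stimulate themselves. It had 1422 reads in the vector control and 1371 in PRMT5 overexpression, although the second library was 1.41 times as deep. Scaled, this was 99.7 and 69.55 CPM. The gene was 1.43-fold lower, at a log2 ratio of -0.52 (-0.63 to -0.41). Of 4552 genes of like depth, 1.9% had a log2 ratio as low or lower, and 4.0% were as far from 0 in either direction. AREG (ENSG00000109321; chromosome 4, 74445134 to 74455009, plus strand) shares no exon base with a counted gene.

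EREG, epiregulin, binds EGFR with low affinity and also activates ERBB4. It had 1016 reads in the vector control and 1024 in PRMT5 overexpression, at 71.25 and 51.95 CPM. It was 1.37-fold lower, at a log2 ratio of -0.46 (-0.58 to -0.33). Of 5263 genes of like depth, 2.3% were as low or lower, and 4.8% were as far from 0 in either direction. EREG (ENSG00000124882) lies on the plus strand from 74365143 to 74388751, before AREG. EREG relative to AREG gave 1.045 times (0.931 to 1.174) between the libraries, a difference within counting error. Relative to EGFR, AREG was at 0.762 times (0.706 to 0.823) and EREG at 0.797 times (0.729 to 0.871), so both were lower against the receptor as well.

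HBEGF, a heparin-binding ligand released in wounds, was the third ligand with over 100 reads whose interval lay below 0. It had 127 reads in the vector control and 116 in PRMT5 overexpression, at 8.91 and 5.885 CPM. It was 1.51-fold lower, at a log2 ratio of -0.59 (-0.97 to -0.22), so the reads also allow a smaller difference. Among the 8 family genes averaging 50 reads or more, HBEGF alone was at least 1.5-fold lower, where 2.42% of 13282 such genes were. It came under 1.5-fold with a prior count of 5 (-0.57) and with deposited FPKM (-0.40). The gene is ENSG00000113070 (chromosome 5, 140332843 to 140346631, minus strand).

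BTC and EPGN rested on few reads. BTC, betacellulin, a ligand of EGFR and ERBB4, had 16 reads in the vector control and 4 in PRMT5 overexpression, at 1.12 and 0.203 CPM. It was 4.51-fold lower, at a log2 ratio of -2.17, but the interval ran from -4.51 to -0.83, and with deposited FPKM and a pseudocount of 1 the value was -0.36. EPGN, epigen, a ligand of epithelial tissues, had 22 and 20 reads, at 1.54 and 1.015 CPM. Its log2 ratio was -0.58 (-1.55 to 0.34), so a difference was not detectable at this depth. BTC (ENSG00000174808; 74744759 to 74794686, minus strand) and EPGN (ENSG00000182585; 74308473 to 74315307, plus strand) are the outer genes of the chromosome 4 cluster.

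TGFA and NRG1 stayed within counting error. TGFA, transforming growth factor alpha, had 441 reads in the vector control and 582 in PRMT5 overexpression, at 30.9 and 29.5 CPM, giving -0.07 (-0.25 to 0.11). The gene is ENSG00000163235 (chromosome 2, 70447280 to 70554193, minus strand). NRG1, the neuregulin that activates ERBB3, had 1505 and 2159 reads, at 105.5 and 109.5 CPM, giving 0.05 (-0.04 to 0.15). It is ENSG00000157168 (chromosome 8, 31639386 to 32767959, plus strand). NRG1 relative to AREG was at 1.488 times (1.346 to 1.645), and TGFA relative to AREG at 1.369 times (1.182 to 1.586), so these ligands differed from AREG by more than counting error. HBEGF relative to AREG was at 0.947 times (0.722 to 1.242), an interval that holds 1.

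**Figure D2:**
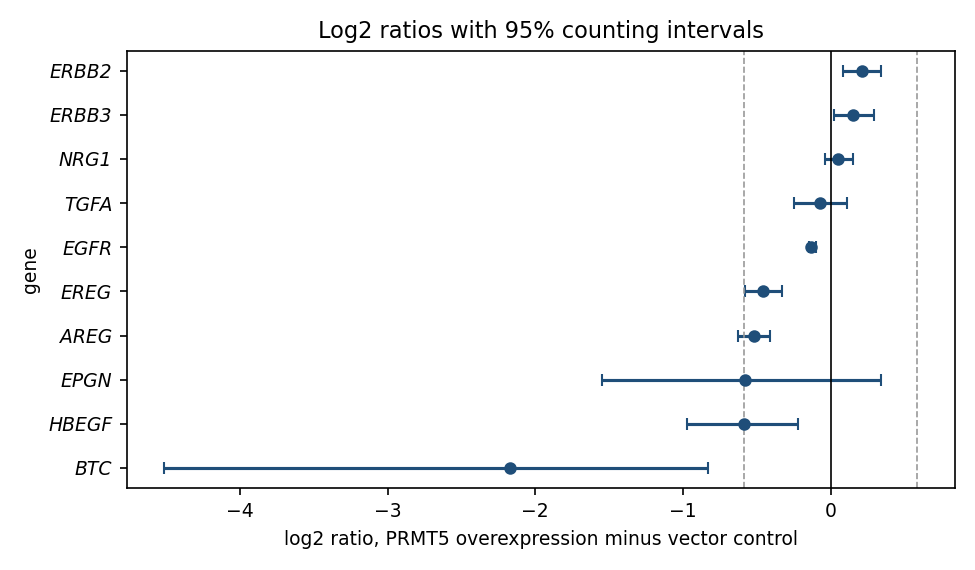
Log2 ratio of PRMT5 overexpression over vector control for each family gene, with points for the ratio, bars for the exact 95% counting interval and dashed lines at 1.5-fold. ERBB2 and ERBB3 lie to the right of 0, AREG, EREG, HBEGF and BTC lie to the left with intervals that leave out 0, and the intervals of EPGN, TGFA and NRG1 hold 0.

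**Figure D3:**
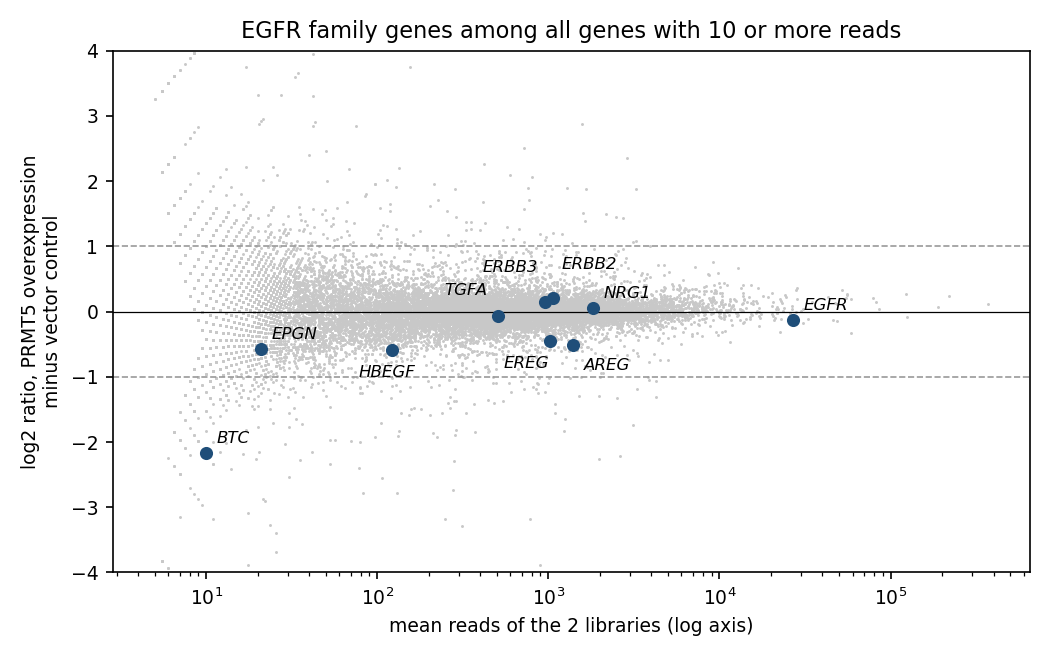
Log2 ratio against the mean reads of the 2 libraries (log axis) for the 17777 genes reaching 10 reads (grey) and the 10 family genes (blue), with dashed lines at 2-fold and 25 genes beyond the axis. AREG and EREG lie low among genes of their depth (4.0% and 4.8% as far from 0 in either direction). EGFR lies within the spread at the right (49.4% as far), and BTC among the widely spread genes with few reads.

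The ligand reads were divided differently in the 2 libraries. Longer transcripts give more reads, so each share is compared between libraries and not with the shares of other genes. The 7 ligands together had 4549 reads in the vector control and 5276 in PRMT5 overexpression, or 319 and 267.6 CPM. NRG1 took 33.1% of them in the vector control (interval 31.7 to 34.5) and 40.9% in PRMT5 overexpression (39.6 to 42.3). AREG took 31.3% (29.9 to 32.6) and 26.0% (24.8 to 27.2). NRG1 had a larger and AREG a smaller share with PRMT5 overexpression, in each case by more than counting error. Shares of 1 total depend on each other, so these are not separate differences. The level of NRG1 itself stayed within counting error (105.5 and 109.5 CPM), while the total was lower.

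EREG made up 22.3% of ligand reads (21.1 to 23.6) in the vector control and 19.4% (18.3 to 20.5) in PRMT5 overexpression, and its intervals did not overlap either. This difference was nearly absent with NRG1 left out of the total, at 33.4% and 32.9%, and by FPKM, at 16.2% and 16.0%. The NRG1 share by FPKM was 7.06% and 9.92%, and that of AREG 66.1% and 62.4%. TGFA went the other way, at 9.69% (8.85 to 10.6) and 11.0% (10.2 to 11.9), with overlapping intervals. HBEGF was at 2.79% and 2.20%, EPGN at 0.484% and 0.379%, and BTC at 0.352% and 0.0758%. The 6 listed ligands of EGFR, NRG1 left out, had 3044 and 3117 reads, at 213.5 and 158.1 CPM, or -0.43 (-0.51 to -0.36) on the log2 scale. EGF, described below, is not among the 10 genes and so is in neither the shares nor this total. The 3 receptors together were at 1783 and 1655 CPM, a log2 ratio of -0.11 (-0.13 to -0.08) set almost wholly by EGFR.

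**Figure D4:**
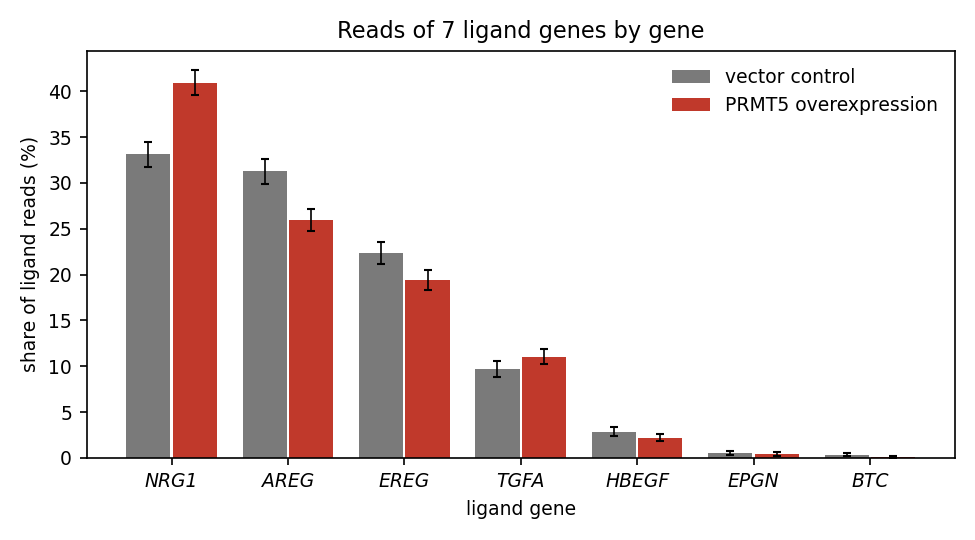
Share of the reads of 7 ligand genes that fell on each gene, in percent, for the vector control (grey) and PRMT5 overexpression (red), with bars for the exact 95% binomial interval. NRG1 goes from 33.1% to 40.9%, AREG from 31.3% to 26.0% and EREG from 22.3% to 19.4%.

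Levels of different genes are compared here per length. By deposited FPKM, EGFR was highest of the family, at 100.9 in the vector control and 90.5 in PRMT5 overexpression, followed by AREG at 45.7 and 31.3 and EREG at 11.2 and 8.01. NRG1 was at 4.885 and 4.97 FPKM, TGFA at 4.335 and 4.06, ERBB2 at 3.30 and 3.74, ERBB3 at 2.74 and 2.99, and HBEGF at 2.15 and 1.39. EPGN and BTC were lowest, at 0.536 and 0.346 FPKM and at 0.364 and 0.0645 FPKM. The order of the 10 genes by FPKM was alike in both libraries. By FPKM, NRG1 stood behind AREG and EREG although it had the most ligand reads.

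For the 10 family genes, the length in the FPKM values was longer than the merged exons of the gene models. With CPM per kb of merged exons instead, EGFR and AREG again led, at 133.6 and 60.5 in the vector control and 122.2 and 42.2 in PRMT5 overexpression. ERBB3 then passed ERBB2 in both libraries, NRG1 passed EREG in PRMT5 overexpression (9.67 against 9.09), and TGFA stood behind ERBB2 and ERBB3 there. The order among TGFA, ERBB2 and ERBB3 hence depended on the length used. Among 31 receptor tyrosine kinases, the 3 receptors here, ERBB4 and 27 others, EGFR ranked first in both libraries on both lengths, and the second by FPKM was the ephrin receptor EPHB4 at 19.2 and 19.6.

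Other genes of the family were few or unread. EGF, the founding ligand, had 240 reads in the vector control and 317 in PRMT5 overexpression, a log2 ratio of -0.07 (-0.31 to 0.18). NRG4, a ligand of ERBB4, had 93 and 99 reads, giving -0.37 (-0.80 to 0.05). Its exons overlap those of FBXO22, and summed with that gene the sign turned, to 0.11. The receptor gene ERBB4 and the neuregulin gene NRG3 had 0 reads in both libraries, which allows up to 3 reads, or a level of 0.210 CPM and 0.152 CPM respectively, and NRG2 had 0 and 2 reads. ERBB4, which also binds BTC, EREG and HBEGF, was thus not detectable at this depth.

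The chromosome 4 ligands lie next to a cluster of CXC chemokine genes, and the window within 1000000 bases on either side was described after the values had been seen. It held 52 genes, of which 18 reached 10 reads. Besides the 4 ligands, 5 chemokine genes were among these, and 4 of the 5 had a log2 ratio below 0, as did 49.6% of the 17777 genes. CXCL3 was at -1.20 (61 and 36 reads), CXCL8 at -0.93 and CXCL1 at -0.68, while CXCL2 was at -0.10 and CXCL6 at 0.13, both with intervals that hold 0. The 9 other genes ran from -0.35 to 0.52 with a median of -0.02, and 5 of them were below 0. MTHFD2L, which lies between the chemokines and EPGN, was at 0.21 (-0.14 to 0.56). The lower values were thus not shared by all genes of the window.

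**Figure D5:**
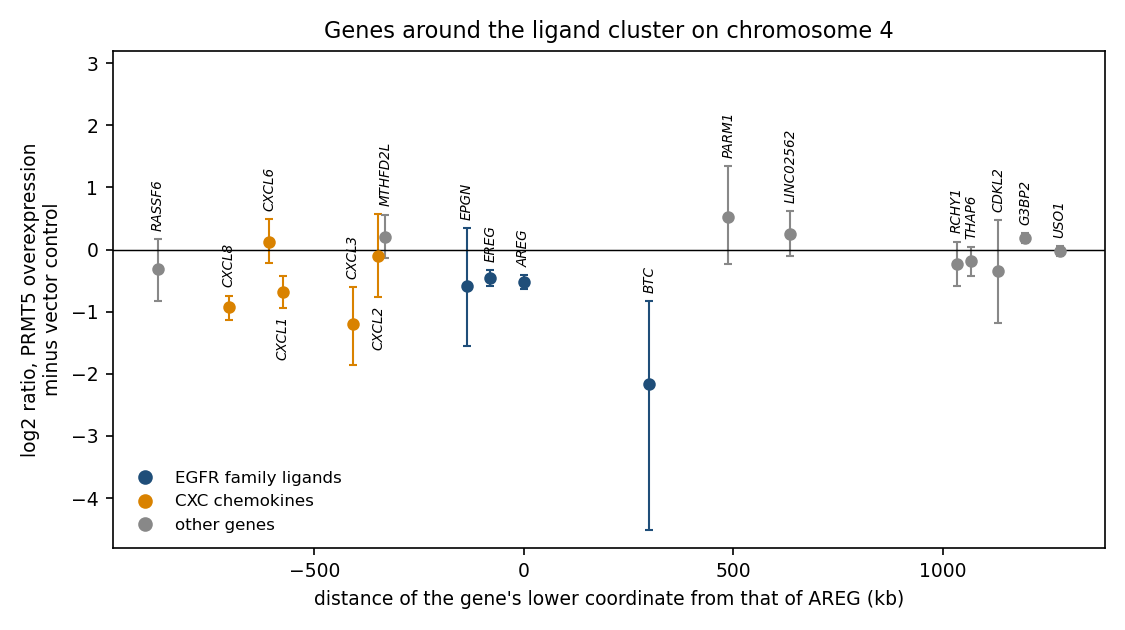
Log2 ratio of PRMT5 overexpression over vector control for the 18 genes reaching 10 reads around the ligand cluster, plotted by distance from AREG in kb, with bars for the 95% counting interval. The 4 ligands (blue) and the chemokines CXCL8, CXCL1 and CXCL3 (orange) lie below 0. MTHFD2L between them and PARM1 beyond BTC lie above 0, and the intervals of EPGN, MTHFD2L and PARM1 hold 0.

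Genes that act before and after the receptors were mostly under 1.5-fold apart, and so were most genes of the whole table. Of all 17777 genes, 5.33% were at least 1.5-fold lower and 7.06% at least 1.5-fold higher. Among genes averaging 50 reads or more, 2.42% were at least 1.5-fold lower. Of 13 sheddases, cofactors and metalloprotease inhibitors (RECK and TIMP3), 11 reached 10 reads and 0 were 1.5-fold apart. The median log2 ratio was -0.10 and the range -0.25 to 0.25, with RECK at the upper end. ADAM17, the main enzyme that releases AREG, EREG, HBEGF and TGFA, had 2940 and 3799 reads, giving -0.10 (-0.17 to -0.03). ADAM10, which releases BTC and EGF, had 2005 and 2488 reads, giving -0.16 (-0.24 to -0.07). Both were singled out for their role with the values known, as were ERRFI1, CBL, DUSP6, CCND1 and SPRED2 below.

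None of 24 adaptors and effectors such as GRB2 and SHC1 was 1.5-fold apart, and the median was -0.02. They ran from -0.26 (PIK3R1) to 0.44 (PIK3R2). None of 24 negative regulators and trafficking genes was either, with a median of -0.02 and a range from -0.29 (LRIG3) to 0.41 (SOCS4). Over all genes, 5.33% were at least 1.5-fold lower and 7.06% at least 1.5-fold higher. ERRFI1, an inhibitor that EGFR signalling induces, was at -0.25 (-0.35 to -0.14), and CBL, the ubiquitin ligase of EGFR, at 0.02 (-0.08 to 0.13). The 15 genes of the RAS to ERK cascade, inhibitors such as NF1 and PEBP1 among them, ran from -0.25 to 0.13. PEBP1 was at the upper end.

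Of 18 output genes of ERK, 9 were above and 9 below 0, where 49.6% of all genes were below, with a median of 0.03. Only PHLDA1 was 1.5-fold apart, where 5.33% of all genes were at least 1.5-fold lower. It was at 385.3 and then 154.7 CPM, a log2 ratio of -1.32 (-1.38 to -1.25). PHLDA1, which encodes a protein with a pleckstrin homology-like domain, shares exon bases with 2 counted genes and was at -1.24 summed with them. The phosphatase gene DUSP6 was at 0.31 (-0.02 to 0.65), the ERK pathway inhibitor gene SPRED2 at 0.35 (0.22 to 0.49) and the cyclin gene CCND1 at 0.35 (0.30 to 0.41). Below 0 were FOS at -0.49 (-1.14 to 0.14), the phosphatase gene DUSP5 at -0.38 (-0.79 to 0.02) and IER3 at -0.12 (-0.17 to -0.06). The output genes thus had no common direction.

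Other receptor tyrosine kinases had a median of -0.05 over 23 genes, with 13 below 0, where 49.6% of all genes were. EPHA4 and RET, named after their values were seen, were at least 1.5-fold lower, where 5.33% of all genes were. EPHA4 was at -0.99 (41 and 28 reads) and RET at -1.01 (14 and 9 reads). RET reached 10 reads in the vector control only, which fixed its sign, and its interval (-2.49 to 0.21) holds 0.

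The 10 epithelial or squamous markers were all read, from KRT8 with 579 reads to KRT5 with 65233 in the vector control, with a median log2 ratio of 0.15. Their summed level was 10580 CPM in the vector control and 11390 in PRMT5 overexpression. In bulk RNA, fewer cells that express a ligand and less RNA per cell cannot be told apart. Of 6 fibroblast markers, 4 reached 10 reads, and the 6 summed to 5.68 and 2.03 CPM. COL1A2 had 26 and 7 reads, COL3A1 11 and 2 and DCN 12 and 0. These genes reached 10 reads in the vector control only, so the floor fixed their log2 ratios below 0. PDGFRB, which reached 10 reads in both libraries (25 and 29 reads), was at -0.24 (-1.08 to 0.58). Of the leukocyte markers, CD68 had 286 and 320 reads. The log2 ratio of CD68 was -0.30, and 0.32 when summed with the genes whose exons overlap it. ITGAM had 12 and 3 reads, CD3E 6 and 0, PTPRC 0 and 4, and LYZ 0 and 3. The 5 endothelial markers summed to 5.96 and 4.46 CPM, carried by VWF (67 and 69 reads, -0.42) and ERG (17 and 19 reads, -0.29), with PECAM1 at 1 and 0 reads and CDH5 and KDR at 0 in both. The part of such reads in the ligand values was not tested.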

How the data were processed

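The deposited table gave a raw count and an FPKM value for each of 58302 genes in each of the 2 libraries, with symbol, type and position. CASAVA 1.8, HISAT2 2.1.0, StringTie 1.3.4b, edgeR and the builds GRCh38 and hg38 are named without roles, per the submitters' processing notes. The kit was from NEB, per the labels' protocols, and the sources used here do not say whether counting used strand. The authors' FPKM followed the counts with 1 fixed length per gene (100% of 11478 genes with over 100 reads in both libraries, within 1%). That length was, at the median, 1.55 times that of the exons merged from GENCODE release 29.

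The members and gene lists were chosen with earlier results of these data known. Rows of 1 symbol were summed, and genes reaching 10 reads in 1 library or both were kept. TMM factors on these genes (edgeR 4.0.16 in R 4.3.3) were 1.01 (vector control) and 0.990 (PRMT5 overexpression). Log2 CPM used a prior count of 1. Genes of like depth have mean reads within a factor of 2. Ratios of 2 genes between libraries are conditional odds ratios with exact intervals (scipy 1.17.1). The share of 50-base stretches of a family transcript, taken every 10 bases, that occur in transcripts of other genes was 0.41% for ERBB2, 0.22% for EREG and 0 for the other 8. Genes named are the 10 members, PRMT5, EGF, ERBB4, NRG2, NRG3, NRG4, and up to 4 per list at 1.5-fold or more with 5 CPM or more in at least 1 library. All other genes named, cell type markers among them, were chosen with their values known. The calculation was tested on simulated Poisson counts, where the intervals of 95.6% of unchanged genes held the true value. Such counts hold no variation between cultures, so this checks the arithmetic only. The alternatives tried were DESeq2 1.42.0 size factors, total counts, a prior count of 0.1 or 5, FPKM, other floors, 1 row per symbol, exon-sharing sums and means. A search of ligand proteins for the EGF-like domain was not run. A leukocyte marker is not reported here.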

Additional observations from a re-analysis of the deposited data

How the results depend on the processing

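The number of family genes at least 2-fold lower, 1 (BTC), became 0 with deposited FPKM and a pseudocount of 1, 0 with a floor of 50 reads, and 2 at a threshold of 1.5-fold. The first shrinks ratios of low levels and the second leaves out BTC by construction. The number at least 2-fold higher was 0 in every alternative run. The number at least 1.5-fold lower, 2, became 3 under total counts or a prior count of 0.1 (EPGN added), 1 under a prior count of 5, and 0 with FPKM. Of 70 recalculated log2 ratios of the family genes, 67 lay inside the counting interval and 0 took the other sign. The others were EGFR at -0.16 with total counts and with FPKM, and BTC at -0.36 with FPKM. AREG ran from -0.55 to -0.52, EREG from -0.48 to -0.44 and HBEGF from -0.62 to -0.40, the median of the 10 genes from -0.41 to -0.10, that of the ligands from -0.62 to -0.36, and that of the receptors from 0.08 to 0.15. The median over all genes moved to -0.026 at most. The 13 recalculated differences in ligand share kept their sign but not their size. In percentage points, EREG went from -2.9 to -0.2 with FPKM and -0.5 without NRG1, NRG1 from 7.8 to 2.86 with FPKM, AREG from -5.3 to -3.7 and -2.7, and TGFA from 1.31 to 1.84 and 4.2. Of 79 recalculated medians of the other lists, 76 lay between the medians of the lower and of the upper interval bounds of the list's genes. The others were the epithelial or squamous markers, from 0.15 to 0.12 with total counts and with FPKM, and the fibroblast markers, from -2.28 to -0.08 with FPKM. Among the 76, 2 took the other sign (ERK output genes at -0.04 as a mean, other receptor tyrosine kinases at 0.02 with a floor of 50 reads). No paired analysis was possible because only 1 library stands on either side. Depth limits BTC, EPGN and the unread ERBB4 and NRG3 most.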
